A study of Homo sapiens with 18 samples.

Results

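RAB proteins are small GTPases of vesicle traffic, and their transcripts were followed here in LNCaP prostate carcinoma cells given an androgen, an antiandrogen or both. The members were all genes whose deposited symbol is RAB followed by a number, and 11 partner genes with compound symbols, such as RAB3IP and RAB11FIP1, were left out. This gave 56 of the 19174 genes on the arrays, measured by 147 probe sets. For each gene the brightest probe set, by its mean over the 18 arrays, was used; 15 members had a single probe set and 41 had several, up to 7. The symbols RAB7L1, RAB2, RAB7 and RAB39 of the deposited annotation are given by their current names RAB29, RAB2A, RAB7A and RAB39A.

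A RAB protein is active when it carries GTP and is then held on a particular membrane, where it recruits effectors such as motors and tethers that move, dock or fuse vesicles. Exchange factors load the GTP, GTPase-activating proteins end the active state, and a geranylgeranyl lipid anchor holds the protein on the membrane. Different RAB proteins serve the route from endoplasmic reticulum to Golgi, the Golgi itself, secretory granules, and early, recycling and late endosomes. Luminal cells of the prostate are secretory cells, and androgen is known to maintain their secretory state.

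LNCaP is an established androgen-sensitive line grown from a metastatic prostate tumour, so all values come from 1 line. Serum in the culture medium (5%) had been depleted of hormone in every group, and treatment lasted 16 h. Cells received the solvent DMSO as vehicle, dihydrotestosterone (DHT, the potent natural androgen) at 100 nM, the androgen receptor antagonist enzalutamide at 1 or 10 µM without androgen, or DHT at 100 nM plus enzalutamide at 1 or 10 µM. There were 3 arrays in each of these 6 groups. Whether replicates were cultured separately is not in the labels, so p-values speak of the variation among these samples, and that variation may be technical.

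Values are log2 signals, and changes are log2 differences between group means ± the standard error of the fit, with n = 3 arrays per group. A gene was tested if its mean signal reached 6.98, the median of all probe sets, which left 12755 genes and 52 members. It was called at a Benjamini-Hochberg adjusted p under 0.05 in limma. The ratio of the 3′ to the 5′ control probe set of ACTB, read as a sign of RNA integrity, was 4.50 on DHT replicate 2 and 6.04 on enzalutamide 1 µM replicate 2. It lay between 1.42 and 1.80 on the others, and results are therefore also given without this pair of arrays, called the arrays of high ACTB ratio. All 10 luminal prostate markers lay above the limit, against 2 of 6 fibroblast, 2 of 6 leukocyte, 2 of 3 basal and 2 of 3 endothelial markers. In bulk RNA, a lower level per cell and fewer cells that carry the transcript cannot be told apart.

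The comparison of DHT with vehicle asks what the androgen changed. RAB3B, RAB29 and RAB4A rose between 2.30-fold and 2.72-fold, RAB27A, RAB28, RAB3D and RAB32 rose by less, and RAB37, RAB24 and RAB9A fell. These are 7 higher and 3 lower calls among the 52 tested members, or 19.2%, against 16.1% of all tested genes (7.8% higher and 8.32% lower), so the share of members called was near the background. RAB37 reached the brightness limit only through other groups, as its mean was 7.24 with vehicle and 6.53 with DHT. Its call was lost without that limit, so it adds little to the count of falls. The median change of the members was -0.02 and that of all tested genes -0.03. Without the 2 arrays of high ACTB ratio 12 members were called, 7 higher and 5 lower. With each array centred on its median 8 were called, all higher, so the split between rises and falls depended on the scaling. The shares of all tested genes called under these settings are not given here, so these counts stand without a background.

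**Figure D1:**
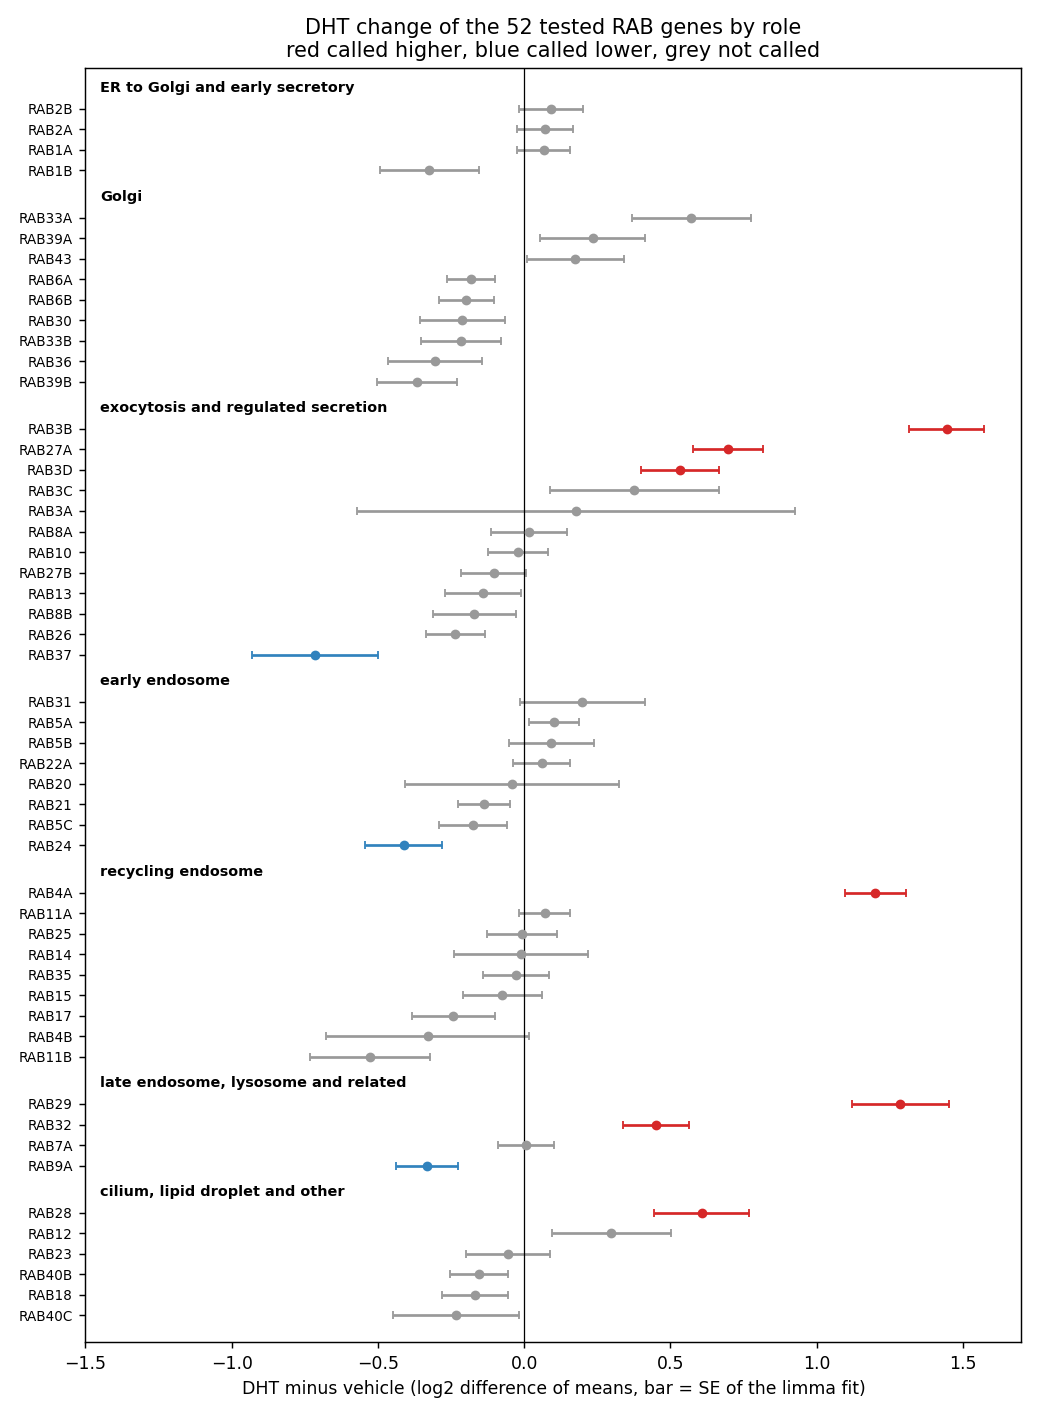
Log2 change with DHT against vehicle for the 52 tested RAB genes, grouped by the compartment they serve, in red where called higher by limma, blue where called lower and grey where not called, with bars for the standard error of the fit. RAB3B (1.44), RAB29 (1.29) and RAB4A (1.20) lie farthest to the right, in 3 different groups.

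Among the RAB genes of exocytosis and regulated secretion, 3 of 12 rose and 1 fell, or 33.3% called against 16.1% of all tested genes. The classes were drawn up with earlier results of these data known, so their shares do not test whether a compartment responded. RAB3B, known from regulated exocytosis in neurons and endocrine cells, stood at 8.68, 8.46 and 8.70 with vehicle and at 10.30, 9.86 and 10.01 with DHT. All DHT arrays lay above all vehicle arrays, and the rise was 1.44 ± 0.13, or 2.72-fold (adjusted p = 1.25e-07). The other 3 RAB3B probe sets gave 1.29, 1.25 and 0.87. The last, of highest variance, did not give a call (adjusted p = 0.291, highest over all alternatives), and gave 1.5 and a call with the arrays of high ACTB ratio left out. RAB3D, a RAB protein of exocrine secretory granules, was 11.49, 11.11 and 11.17 with vehicle and 11.81, 11.96 and 11.60 with DHT. Its groups did not overlap, the rise was 0.53 ± 0.13 (adjusted p = 0.00855), and the call was lost without vehicle replicate 2, at 0.46. The paralogues RAB3A and RAB3C were not called, with changes of 0.18 ± 0.75 and 0.38 ± 0.29. RAB3A spread widely within groups, from 6.38 to 9.15 among the DHT arrays, so a change of the size seen for RAB3B was not detectable there.

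RAB27A, which docks secretory lysosomes and melanosomes at the cell periphery, was 9.00, 8.79 and 8.97 with vehicle and 9.75, 9.36 and 9.73 with DHT. The arrays did not overlap, and the rise was 0.70 ± 0.12 (adjusted p = 0.000347). Its other probe sets gave 0.60 and 1.16, and no alternative setting ended this call. Its paralogue RAB27B was not called: it was 10.48, 10.28 and 10.24 with vehicle and 10.08, 10.34 and 10.28 with DHT, a change of -0.10 ± 0.11 (95% interval -0.34 to 0.13). The interval of RAB27A ran from 0.44 to 0.95 and did not meet that of RAB27B, although the difference between the genes was not tested. RAB37, a RAB protein of secretory granules in mast cells and pancreas, was 7.28, 7.23 and 7.21 with vehicle and 6.68, 6.34 and 6.56 with DHT. It fell by 0.71 ± 0.22 (adjusted p = 0.0289) to levels below the brightness limit, so the size of the fall is uncertain, and the call was lost in 4 of 8 settings and when any vehicle array or DHT replicate 2 or 3 was left out (adjusted p between 0.00652 and 0.119 over all alternatives). Of the other exocytic members, RAB8A, RAB8B, RAB10, RAB13 and RAB26 lay between -0.23 and 0.02 and were not called.

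Among the RAB genes of recycling endosomes 1 of 9 rose, or 11.1% against 16.1% of all tested genes. RAB4A, which drives rapid return of receptors from early endosomes to the surface, was 11.75, 11.89 and 11.83 with vehicle and 13.00, 13.13 and 12.93 with DHT. The groups lay more than 1 log2 unit apart, the rise was 1.20 ± 0.10, or 2.30-fold (adjusted p = 8.87e-08), and the second probe set gave 1.06. This call held in every alternative setting run, with changes between 1.06 and 1.30. Its paralogue RAB4B, at 9.43, 9.38 and 9.25 with vehicle and 9.21, 9.10 and 8.77 with DHT, changed by -0.33 ± 0.35 and was not called. RAB11B, of slow recycling, had a change of -0.53 ± 0.21 (adjusted p = 0.093), while RAB11A, RAB14, RAB15, RAB17, RAB25 and RAB35 lay between -0.24 and 0.07.

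Of the 4 tested RAB genes of late endosomes, lysosomes and lysosome-related organelles, 2 rose and 1 fell, or 75% against 16.1% of all tested genes. The class is small and was drawn up with earlier results known, so this share does not single it out. RAB29, which acts at the trans-Golgi and lysosomes and recruits the kinase LRRK2, was 10.84, 10.81 and 10.77 with vehicle and 11.90, 12.52 and 11.87 with DHT. No DHT array came near the vehicle arrays, and the highest was the array of high ACTB ratio. The rise was 1.29 ± 0.16, or 2.44-fold (adjusted p = 1.28e-05), and 1.08 ± 0.11 without that pair of arrays. Its other probe sets gave 0.86 and 0.50. The second, of highest variance, did not give a call (adjusted p = 0.364, highest over all alternatives), and gave 0.90 and a call when that pair was left out. RAB32, of melanosome biogenesis, was 10.05, 10.00 and 10.02 with vehicle and 10.41, 10.66 and 10.34 with DHT, with no overlap. It rose by 0.45 ± 0.11 (adjusted p = 0.00897), and leaving out DHT replicate 2 ended the call at 0.35, as did the probe set of highest variance at 0.43. RAB9A, which returns mannose 6-phosphate receptors from late endosomes to the Golgi, was 11.38, 11.22 and 11.26 with vehicle and 10.87, 11.07 and 10.93 with DHT. Its groups did not overlap and it fell by 0.33 ± 0.11 (adjusted p = 0.0391), and the call was lost in 4 of 9 settings and without any vehicle array, DHT replicate 1 or 3, or replicate 2 of DHT with 1 µM (adjusted p between 0.00667 and 0.393 over all alternatives). RAB7A, the main RAB of late endosome maturation, had a change of 0.01 ± 0.10.

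In the remaining classes 1 gene rose and 1 fell. RAB28, known from cilia and photoreceptors, was 10.28, 9.99 and 10.40 with vehicle and 10.62, 11.16 and 10.72 with DHT. The arrays did not overlap and the rise was 0.61 ± 0.16 (adjusted p = 0.0132), and it was 0.44 ± 0.13 once the arrays of high ACTB ratio were left out. Leaving out vehicle replicate 2 or DHT replicate 2 alone ended the call (adjusted p between 0.00437 and 0.0837 over all alternatives). The other 5 RAB28 probe sets gave 0.23, -0.09, -0.48, 0.22 and -0.44, the last 2 from probe sets below the brightness limit, so the gene's probe sets disagreed. RAB24, an atypical member linked to autophagy, was 10.80, 10.68 and 10.68 with vehicle and 10.35, 10.46 and 10.12 with DHT, and it fell by 0.41 ± 0.13 (adjusted p = 0.0356) without overlap. That call was lost in 3 of 9 settings and without any vehicle array or DHT replicate 1 or 3 (adjusted p between 0.0209 and 0.278 over all alternatives).

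The other members of these classes were not called for DHT. All 4 early secretory genes lay between -0.32 and 0.09, namely RAB1A, RAB1B, RAB2A and RAB2B, which act between endoplasmic reticulum and Golgi. Among 9 Golgi members, RAB6A, RAB6B, RAB30, RAB33A, RAB33B, RAB36, RAB39A, RAB39B and RAB43, changes ran from -0.37 to 0.57. The early endosomal members RAB5A, RAB5B, RAB5C, RAB20, RAB21, RAB22A and RAB31 lay between -0.17 and 0.20, and RAB12, RAB18, RAB23, RAB40B and RAB40C between -0.23 and 0.30. RAB34, RAB38, RAB40A and RAB7B had means below the brightness limit and were not tested. In all, 18 tested members were called in at least 1 of the 10 comparisons made, and 34 in none. The matching share of all tested genes was not computed, so this count has no background to be read against.

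**Figure D2:**
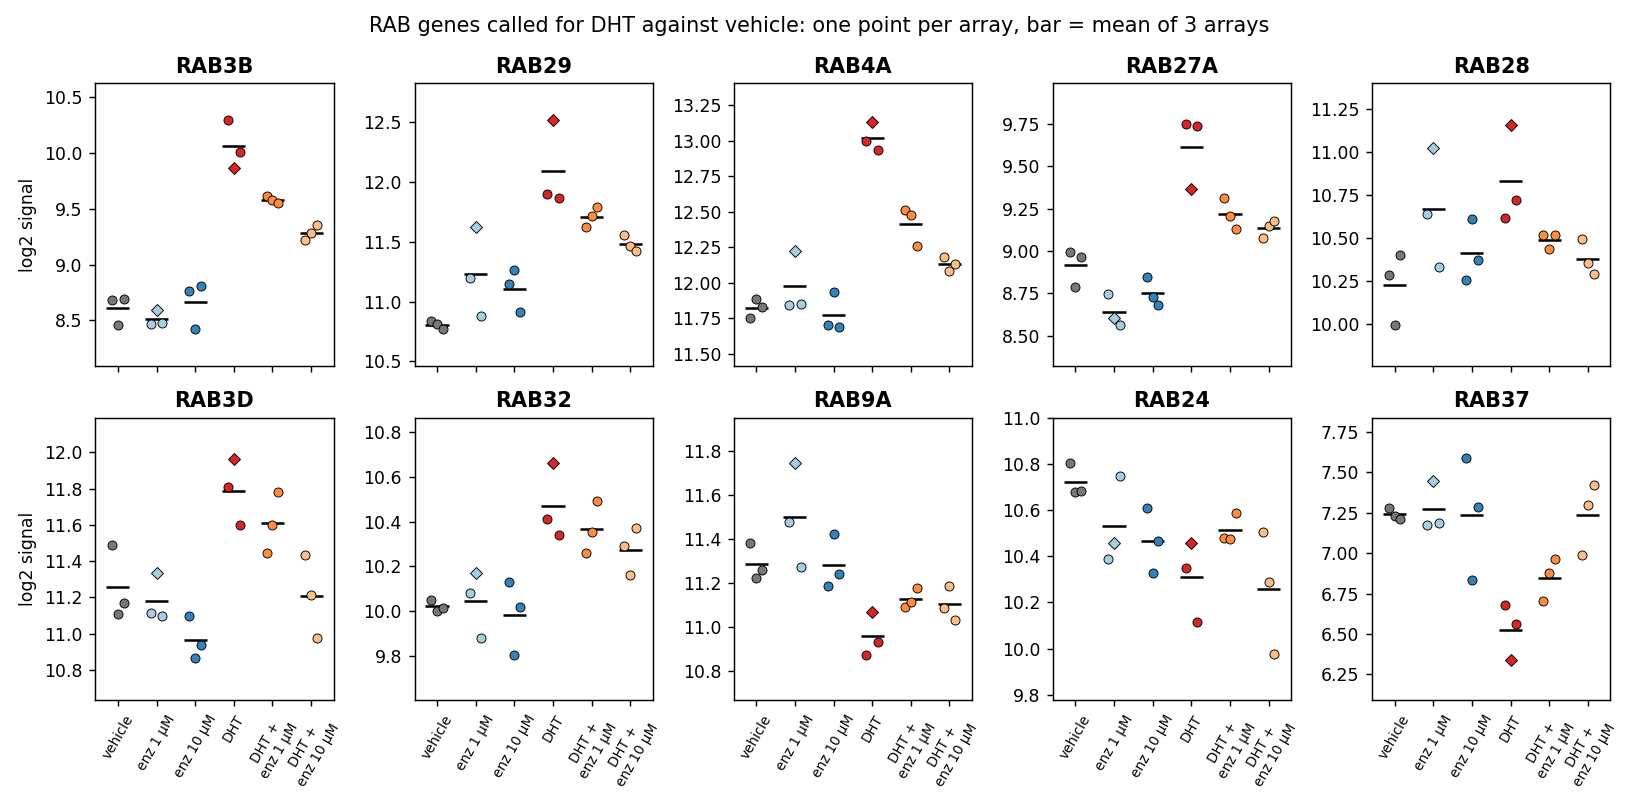
Log2 signal of the RAB genes called for DHT against vehicle on each of the 18 arrays, by group, with bars for group means and diamonds for the 2 arrays of high ACTB ratio. In RAB3B, RAB29 and RAB4A the DHT arrays lie above all vehicle arrays, and the arrays with added enzalutamide lie between them or near vehicle.

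The 3 genes of the largest rise all lie on chromosome 1 but far apart, and their start regions are shown because these transcripts rose together. RAB27A was added because, of the 9 genes called for DHT that matched by symbol, it alone held the letters searched, in 1 of its 5 start regions. The windows run from 250 bases before to 50 bases after the annotated start in RefSeq, build GRCh38.p14, and are read 5′ to 3′ on the gene's strand. They lie at chr1:51990651-51990950 on the minus strand for RAB3B, chr1:205775433-205775732 on the minus strand for RAB29, chr1:229270861-229271160 on the plus strand for RAB4A and chr15:55270350-55270649 on the minus strand for RAB27A, which has 5 annotated windows. Capitals mark the start base and, in RAB27A, the match.
RAB3B: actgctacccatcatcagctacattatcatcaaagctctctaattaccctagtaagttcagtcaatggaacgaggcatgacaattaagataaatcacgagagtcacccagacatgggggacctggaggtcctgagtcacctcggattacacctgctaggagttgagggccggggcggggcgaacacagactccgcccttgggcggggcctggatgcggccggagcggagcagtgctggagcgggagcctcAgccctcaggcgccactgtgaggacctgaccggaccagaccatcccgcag
RAB29: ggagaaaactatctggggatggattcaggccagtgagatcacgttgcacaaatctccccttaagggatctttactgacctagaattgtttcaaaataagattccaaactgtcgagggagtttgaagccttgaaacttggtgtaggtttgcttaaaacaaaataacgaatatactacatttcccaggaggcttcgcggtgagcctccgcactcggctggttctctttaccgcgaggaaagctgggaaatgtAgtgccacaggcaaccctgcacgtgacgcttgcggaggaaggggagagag
RAB4A: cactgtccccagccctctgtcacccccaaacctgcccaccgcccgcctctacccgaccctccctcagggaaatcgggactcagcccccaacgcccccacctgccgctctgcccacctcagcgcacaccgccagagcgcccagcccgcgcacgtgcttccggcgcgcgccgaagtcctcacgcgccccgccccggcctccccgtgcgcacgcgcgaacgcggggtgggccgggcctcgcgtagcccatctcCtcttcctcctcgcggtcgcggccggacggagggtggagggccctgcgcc
RAB27A: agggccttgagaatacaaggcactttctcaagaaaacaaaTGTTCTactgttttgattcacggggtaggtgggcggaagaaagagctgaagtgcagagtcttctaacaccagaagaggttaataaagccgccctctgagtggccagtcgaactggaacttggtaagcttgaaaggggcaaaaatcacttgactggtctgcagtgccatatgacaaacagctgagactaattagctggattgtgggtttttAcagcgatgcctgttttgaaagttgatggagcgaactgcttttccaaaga
The letters searched were AGAACA and its reverse complement TGTTCT, the core of the androgen and glucocorticoid response element, on both strands. They occurred in 5192 of 35116 start windows of this length (14.8%) and in 10 of 59 windows of the 41 tested members matched by symbol (16.9%), so members and all genes differed little. RAB27A held TGTTCT 210 bases before the start in the window shown, which was picked for that match. Its other windows held none. No match was found in the windows of RAB3B, RAB29 and RAB4A, which says only that these letters are not in these windows. The palindrome of AGAACA, 3 bases of any kind and TGTTCT occurred in 1 of the 35116 windows and in none of the members' 59. Base composition differed among the 3 genes, with 58.7% G and C in RAB3B, 48.3% in RAB29 and 75.7% in RAB4A, against a median of 58.7% over all windows.

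The comparisons of DHT with and without enzalutamide ask how far the drug altered levels beside the androgen. With 10 µM enzalutamide added, RAB3B, RAB4A, RAB29, RAB27A and RAB3D were lower than with DHT alone, and RAB37 was higher. These 6 calls are 11.5% of the tested members, against 8.42% of all tested genes (3.94% higher and 4.48% lower), and 3 were left without replicate 2 of DHT with 10 µM. The DHT mean of RAB37 (6.53) lay below the brightness limit, and its call was lost without that limit. With 1 µM added, RAB3B and RAB4A were lower, or 3.85% of the members against 3.5% of all genes (1.22% higher and 2.27% lower). These comparisons use the same 3 DHT arrays as the comparison with vehicle, so the changes are given side by side and are not independent.

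RAB4A stood at 12.51, 12.48 and 12.26 with DHT and 1 µM and at 12.18, 12.08 and 12.13 with DHT and 10 µM. Both sets lay below all DHT arrays and above all vehicle arrays. The difference from DHT was -0.61 ± 0.10 at 1 µM (adjusted p = 0.00148) and -0.89 ± 0.10 at 10 µM (adjusted p = 1.14e-05). The first call was lost with the probe set of highest variance, at -0.46, and with each array centred, at -0.55 (adjusted p between 0.000203 and 0.0655 over all alternatives). Against vehicle the level left was higher by 0.59 ± 0.10 at 1 µM (adjusted p = 0.000964), while at 10 µM the difference of 0.31 ± 0.10 was not called (adjusted p = 0.129), although it was when the arrays of high ACTB ratio were left out, at 0.31 ± 0.08.

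RAB3B was 9.61, 9.57 and 9.55 with DHT and 1 µM, and 9.22, 9.28 and 9.35 with DHT and 10 µM. Again both sets lay between the vehicle and the DHT arrays. The differences from DHT were -0.48 ± 0.13 (adjusted p = 0.0488) and -0.77 ± 0.13 (adjusted p = 0.000596), and the first was so near the threshold that leaving out any of 14 of the 18 arrays ended its call, those of all 6 groups among them (adjusted p between 0.0208 and 0.838 over all alternatives). Against vehicle RAB3B remained higher at both doses, by 0.97 ± 0.13 (adjusted p = 5.94e-05) and 0.67 ± 0.13 (adjusted p = 0.00554). When the RAB3B probe set of highest variance was used in place of the brightest, the difference from DHT turned to 0.26 at 1 µM and 0.22 at 10 µM, neither called. That turn rested on DHT replicate 2, an array of high ACTB ratio: with such arrays left out the same probe set gave -0.38 and -0.41, again not called. Against vehicle it gave 1.12 and 1.09, neither called with all arrays.

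RAB29 was 11.62, 11.72 and 11.79 with DHT and 1 µM, and 11.56, 11.46 and 11.42 with DHT and 10 µM, all above the vehicle arrays and below the DHT arrays. The difference from DHT was -0.38 ± 0.16 at 1 µM (adjusted p = 0.252) and -0.61 ± 0.16 at 10 µM (adjusted p = 0.0247). With both arrays of high ACTB ratio left out the second became -0.40 ± 0.11, and leaving out DHT replicate 2, or replicate 2 or 3 of DHT with 10 µM, ended its call (adjusted p between 0.00696 and 0.784 over all alternatives). Centring each array also ended it, and the probe set of highest variance turned it to 0.56, or 0.16 with the arrays of high ACTB ratio left out, neither called. RAB29 stayed above vehicle at 1 µM by 0.90 ± 0.16 (adjusted p = 0.00126) and at 10 µM by 0.67 ± 0.16 (adjusted p = 0.0283), the latter lost when any array of either group was left out and both lost with the probe set of highest variance.

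Of the secretory members, RAB27A and RAB3D were called lower at 10 µM and not at 1 µM, and the difference between the doses was not called. RAB27A was 9.31, 9.21 and 9.13 with DHT and 1 µM and 9.08, 9.15 and 9.18 with DHT and 10 µM, below all DHT arrays at both doses. Its difference from DHT was -0.40 ± 0.12 (adjusted p = 0.0814) and -0.48 ± 0.12 (adjusted p = 0.0158), the latter lost without DHT replicate 1 or 3 or without replicate 1 or 2 of DHT with 10 µM. RAB3D was 11.44, 11.60 and 11.78 at 1 µM, within or near the DHT range, and 11.43, 11.21 and 10.97 at 10 µM, below all DHT arrays and within the vehicle range apart from its lowest array. The difference at 10 µM was -0.58 ± 0.13 (adjusted p = 0.00862; lost without replicate 3 of DHT with 10 µM), and that at 1 µM was -0.18 ± 0.13 (adjusted p = 0.542). RAB37 was 6.71, 6.88 and 6.96 at 1 µM and 6.99, 7.30 and 7.42 at 10 µM, and both sets lay above all DHT arrays. Its difference of 0.71 ± 0.22 at 10 µM (adjusted p = 0.0489) was lost in 7 of 8 settings and without any of 14 of the 18 arrays.

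RAB28 and RAB32 were not called at either dose beside DHT. RAB28 differed from DHT by -0.34 ± 0.16 and -0.45 ± 0.16, and RAB32 by -0.10 ± 0.11 and -0.20 ± 0.11. The falling genes RAB9A and RAB24 likewise lacked a call, with 0.17 ± 0.11 and 0.15 ± 0.11 for RAB9A and 0.20 ± 0.13 and -0.05 ± 0.13 for RAB24.

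Between the 2 doses beside DHT no member was called in limma, and only 0.0706% of all tested genes were; 8 members had an unadjusted p under 0.05. The dose differences, 10 against 1 µM, were -0.28 ± 0.10 for RAB4A (95% interval -0.50 to -0.06), -0.30 ± 0.13 for RAB3B (-0.57 to -0.03), -0.23 ± 0.16 for RAB29 (-0.57 to 0.12) and -0.08 ± 0.12 for RAB27A (-0.34 to 0.17). For RAB3D it was -0.40 ± 0.13 (-0.68 to -0.12). All arrays of RAB4A and RAB3B at 10 µM lay below all of those at 1 µM, and the adjusted p-values were 0.476 and 0.567.

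Against vehicle, 5 members were called for DHT with 1 µM enzalutamide, or 9.62%, against 10.1% of all tested genes (5.48% higher and 4.59% lower). For DHT with 10 µM 2 were called, both higher, or 3.85% against 3.16% (1.57% higher). Besides RAB3B, RAB29 and RAB4A, the lower dose gave 2 falls in genes that were not called for DHT alone. RAB33B, a Golgi RAB that binds an autophagy factor, was 9.51, 9.34 and 9.56 with vehicle and 8.99, 8.96 and 8.97 with DHT and 1 µM. It fell by 0.50 ± 0.14 (adjusted p = 0.024; lost without vehicle replicate 1 or 3 or any array with DHT and 1 µM) without overlap, and its change with DHT alone was -0.22 ± 0.14. RAB8B, of post-Golgi exocytosis, was 10.45, 10.60 and 10.43 with vehicle and 9.98, 9.84 and 10.26 with DHT and 1 µM, and fell by 0.46 ± 0.14 (adjusted p = 0.0437). Its call was lost in 4 of 9 settings and without any of 11 of the 18 arrays, and with each array centred neither fall was called, while RAB27A and RAB32 gained a call, which gave 5 rises and 0 falls. That centring moved the median change of all genes in this comparison by 0.16. With 10 µM the called members were RAB3B and RAB29.

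**Figure D3:**
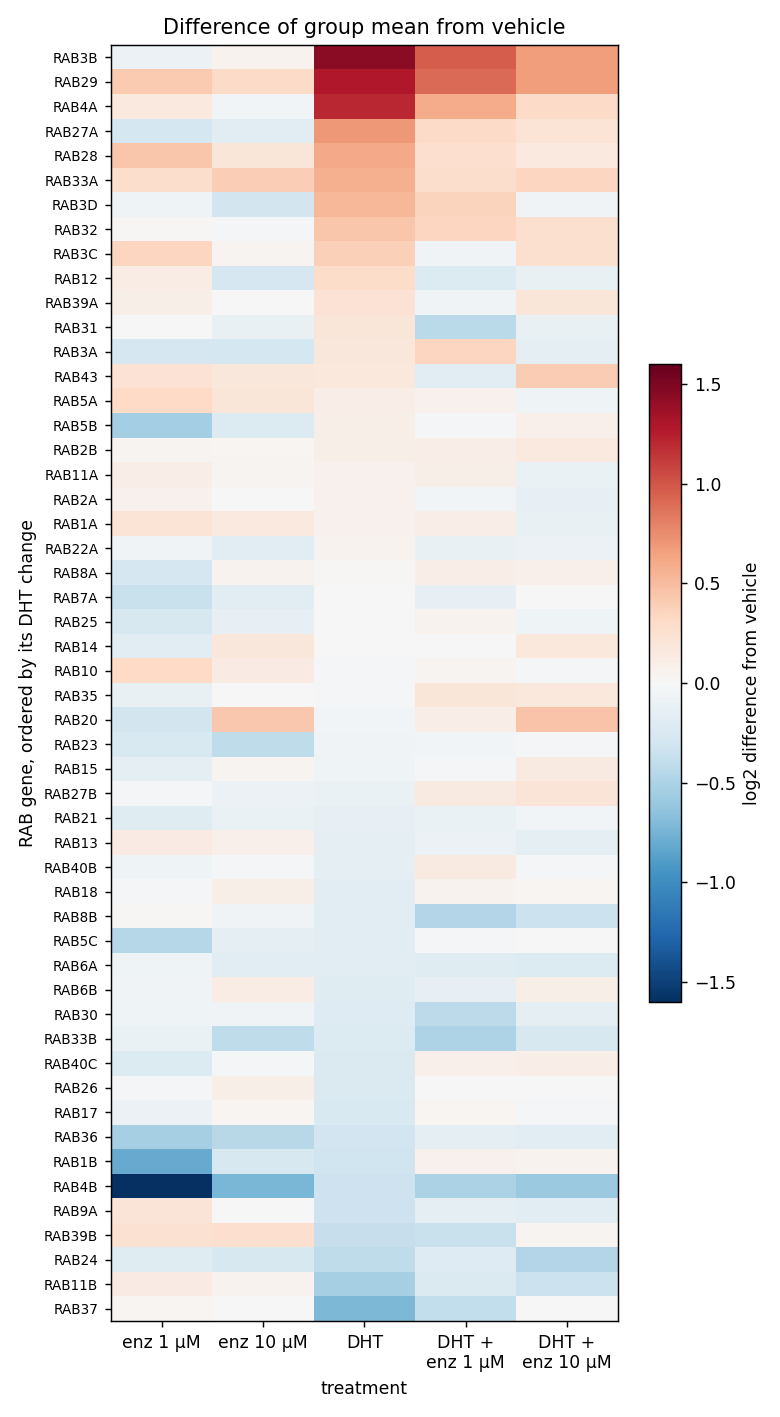
Difference of each group mean from vehicle, on the log2 scale, for the 52 tested RAB genes ordered by their DHT change, with red for higher and blue for lower. RAB3B, RAB29 and RAB4A are red with DHT and paler with added enzalutamide, and RAB4B is blue in the column of 1 µM enzalutamide (-1.59).

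The interaction asks whether the DHT effect beside enzalutamide differed from the DHT effect without it. At 10 µM, 3 members were called, all with a smaller DHT effect beside the drug, or 5.77% against 5% of all tested genes (2.5% lower). RAB4A rose by 1.20 without the drug and by 0.36 ± 0.10 beside it, a difference of -0.84 ± 0.15 (adjusted p = 0.00182). For RAB29 the effects were 1.29 and 0.37 ± 0.16, a difference of -0.91 ± 0.23 (adjusted p = 0.0277), which was lost when any of 8 of the 18 arrays was left out, each vehicle array included. For RAB3B they were 1.44 and 0.62 ± 0.13, a difference of -0.83 ± 0.18 (adjusted p = 0.0113). With the probe set of highest variance the RAB3B interaction was -0.18 (adjusted p = 0.933, highest over all alternatives), and -0.81 with the arrays of high ACTB ratio also left out, neither called. Under those settings RAB29 gave -0.31 and -0.71, neither called, and RAB4A -0.67 and -0.83, both called. The interaction of RAB27A was -0.32 ± 0.17 (95% interval -0.67 to 0.04) and was not called.

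At 1 µM, 4 members were called in the interaction, or 7.69% against 5.83% of all tested genes (3.6% higher and 2.23% lower). RAB4A and RAB29 again had smaller DHT effects beside the drug, by -0.76 ± 0.15 (adjusted p = 0.00683) and -0.81 ± 0.23 (adjusted p = 0.0476), though the call of RAB29 was lost without any of 14 of the 18 arrays. The call of RAB4A was lost with the probe set of highest variance, at -0.18 (adjusted p = 0.549, highest over all alternatives), and with each array centred, at -0.69. RAB3B did not pass, at -0.38 ± 0.18 (adjusted p = 0.22). RAB1B and RAB5C had positive interactions, 1.19 ± 0.24 (adjusted p = 0.00799) and 0.60 ± 0.16 (adjusted p = 0.0378). Beside 1 µM of the drug DHT gave 0.87 for RAB1B and 0.42 for RAB5C, against -0.32 and -0.17 without it. With both arrays of high ACTB ratio left out only RAB1B (0.82 ± 0.18) and RAB4A (-0.58 ± 0.13) were called, and the interaction of RAB29 was -0.40 ± 0.15.

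The antagonist alone was compared with vehicle at each dose. At 1 µM, 6 members were called, or 11.5% against 6.84% of all tested genes (2.24% higher and 4.59% lower), and 3 of them were early endosomal. RAB5A rose, and RAB4B, RAB1B, RAB5B, RAB5C and RAB7A fell. This count depended on single arrays: it was 1 without enzalutamide 1 µM replicate 2 and 10 without replicate 3, and 1, 2 and 2 without vehicle replicate 1, 2 and 3. The shares of all tested genes in these fits are not given here, so the swing cannot be read as particular to the members. Without both arrays of high ACTB ratio 2 falls were called, RAB1B and RAB4B, against 3.33% of all tested genes. At 10 µM no member was called in limma, with 6 at an unadjusted p under 0.05 and 0.815% of all tested genes called.

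The early endosomal genes of the RAB5 type, which fuse endocytic vesicles with early endosomes, moved in different directions. RAB5A was 12.69, 12.58 and 12.67 with vehicle and 12.89, 13.08 and 12.94 with 1 µM, a rise of 0.32 ± 0.09 (adjusted p = 0.0325) without overlap. A second RAB5A probe set gave -0.85, and -0.39 with the arrays of high ACTB ratio left out, so the direction rests on the probe set chosen. RAB5B went from 11.50, 11.16 and 11.44 to 11.10, 10.54 and 10.84, and fell by 0.54 ± 0.15 (adjusted p = 0.0351), and RAB5C from 10.70, 10.62 and 10.52 to 10.20, 9.91 and 10.37, and it fell by 0.45 ± 0.11 (adjusted p = 0.0264). The array of high ACTB ratio was the highest of its group for RAB5A and the lowest for RAB5B and RAB5C, and whether RNA integrity set these values was not tested. Without it and the matching DHT array the changes were 0.27 ± 0.09, -0.40 ± 0.13 and -0.33 ± 0.11, none called. Single arrays also ended these calls: each of vehicle replicate 1 and enzalutamide 1 µM replicate 2 for all 3 genes, vehicle replicate 2 for RAB5A and RAB5C, and vehicle replicate 3 for RAB5A and RAB5B.

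RAB4B had the widest change, from 9.43, 9.38 and 9.25 with vehicle to 6.67, 7.93 and 8.69 with 1 µM. The drug arrays all lay lower but spread from 6.67 to 8.69, and RAB4B fell by 1.59 ± 0.35 (adjusted p = 0.0146). Its other 3 probe sets gave -0.39, -2.51 and, below the brightness limit, 0.05. At 10 µM the change was -0.73 ± 0.35 (adjusted p = 0.328), while the probe set that gave -2.51 was lower than with vehicle by 2.20. Leaving out vehicle replicate 1 or 2 ended the call at 1 µM. RAB1B, of transport from endoplasmic reticulum to Golgi, went from 11.32, 11.45 and 11.67 to 10.76, 10.27 and 11.00, and it fell by 0.80 ± 0.17 (adjusted p = 0.0134), and by 0.60 ± 0.13 when the arrays of high ACTB ratio were left out. The call was lost without vehicle replicate 3 or enzalutamide 1 µM replicate 2 alone. Its paralogue RAB1A was 13.71, 13.63 and 13.58 with vehicle and 13.80, 13.95 and 13.81 with 1 µM, and was not called. RAB7A went from 11.93, 11.92 and 11.93 to 11.71, 11.43 and 11.58, and it fell by 0.35 ± 0.10 (adjusted p = 0.0361), and its other probe sets gave -0.50 and, below the brightness limit, -0.54. That call was lost without any vehicle array or enzalutamide 1 µM replicate 2.

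**Figure D4:**
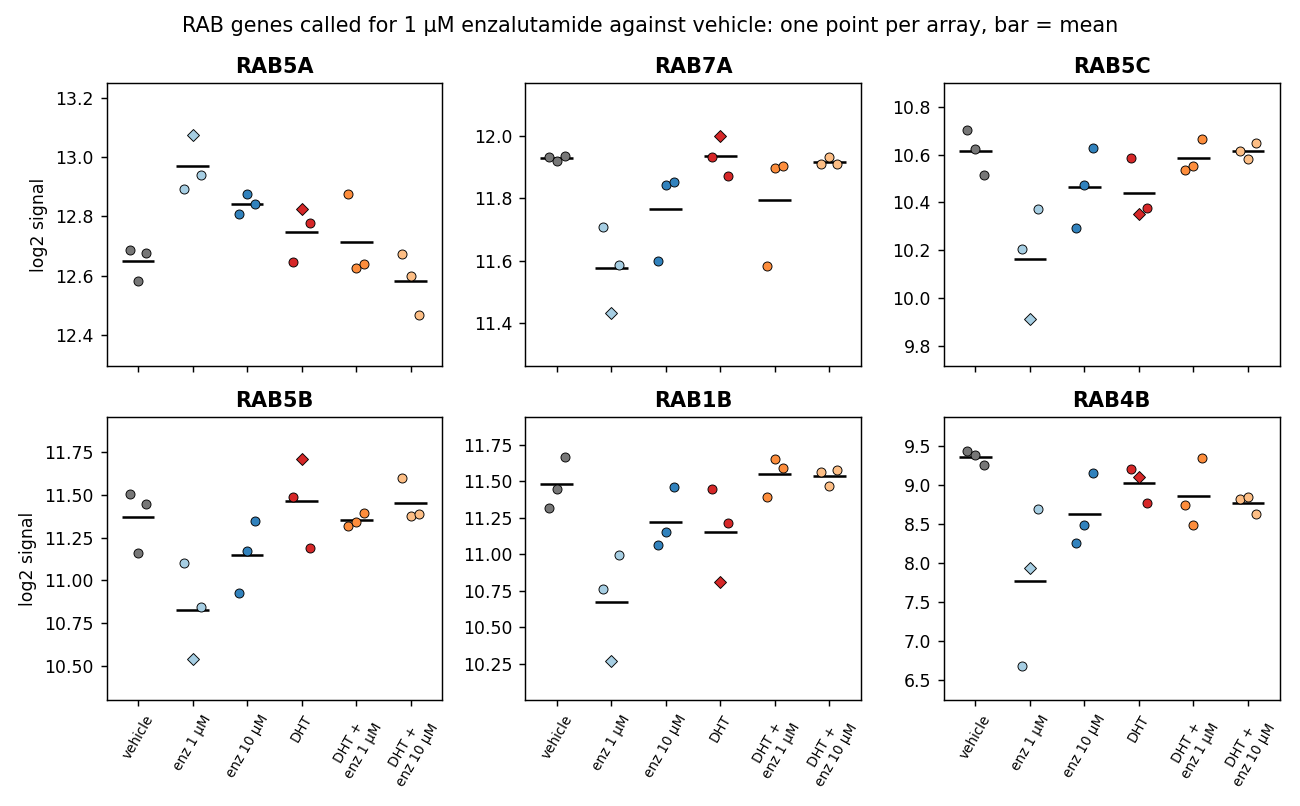
Log2 signal on each array of the 6 RAB genes called for 1 µM enzalutamide against vehicle, by group, with bars for group means and diamonds for the 2 arrays of high ACTB ratio. The diamond is the extreme array of its enzalutamide group for all genes shown except RAB4B, where the lowest array is 6.67.

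The genes that load, switch off or read RAB proteins were taken from 4 lists. Of the effectors, 7 of 45 tested rose with DHT and 6 fell, of the GTPase-activating proteins 4 of 31 rose and 4 fell, of the exchange factors 2 of 38 rose and 3 fell, and of 7 genes for prenylation and escort 1 fell. Read against 16.1% of all genes, 28.9% of effectors, 25.8% of GTPase-activating proteins, 13.2% of exchange factors and 14.3% of the prenylation and escort genes were called. The lists were chosen with earlier results of these data known, so these shares do not test whether RAB partners respond more often than other genes. The median changes of these lists lay between -0.12 and 0.13.

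Effectors that bind RAB27 proteins moved in opposite directions. SYTL2, a synaptotagmin-like tether of RAB27 vesicles, was 10.91, 10.79 and 10.80 with vehicle and 8.57, 8.83 and 9.01 with DHT. The groups lay far apart, and SYTL2 fell by 2.03 ± 0.11 (adjusted p = 1.96e-10). MYRIP, which links RAB27A to myosin motors, fell by 1.14 ± 0.13 (adjusted p = 2.81e-06). MLPH, melanophilin, which joins RAB27A to myosin Va on melanosomes, was 12.12, 12.20 and 12.27 with vehicle and 13.21, 13.10 and 13.05 with DHT. Its arrays did not overlap, and the rise was 0.92 ± 0.10 (adjusted p = 2.82e-06). SYTL1, another synaptotagmin-like protein, named after its value was seen, rose by 0.54 ± 0.14 (adjusted p = 0.0104).

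With 10 µM enzalutamide beside DHT, SYTL2 was 9.91, 9.97 and 10.14, higher than with DHT by 1.21 ± 0.11 (adjusted p = 6.43e-07) and lower than with vehicle by 0.83 ± 0.11. MLPH was 12.12, 12.15 and 12.03, lower than with DHT by 1.02 ± 0.10 (adjusted p = 1.88e-06) and within or just below the vehicle range. MYRIP at 10.58, 10.40 and 10.37 differed from DHT by 0.30 ± 0.13 and was not called (adjusted p = 0.172).

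Other effectors were MICAL1, an actin-oxidising protein that binds RAB proteins, which rose by 1.02 ± 0.21, RABEP2, a partner of RAB5 and RAB4, which rose by 0.59 ± 0.13, and the Golgi tether GOLGA2, which rose by 0.58 ± 0.14. RIMS1, a RAB3 effector of synaptic release, fell by 0.73 ± 0.19, and OPTN, optineurin, a RAB8 partner, fell by 0.71 ± 0.12. The rises of RABEP2 and GOLGA2 were lost with the probe set of highest variance, and that of GOLGA2 turned to -1.78, or to 0.23 with the arrays of high ACTB ratio left out as well. The call of RIMS1 was lost under these settings too, at -1.71 and -0.84.

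Among the GTPase-activating proteins, TBC1D1 and TBC1D4, which restrain glucose transporter vesicles in muscle and fat, rose by 1.02 ± 0.13 (adjusted p = 1.16e-05) and 0.72 ± 0.12 (adjusted p = 0.000239). Arrays of TBC1D1 went from 9.21, 9.06 and 9.09 to 10.36, 10.09 and 9.97, with no overlap. TBC1D8 rose by 0.85 ± 0.13 and TBC1D16 by 0.43 ± 0.14. SGSM1 fell by 1.73 ± 0.43, but its DHT arrays ran from 4.79 to 7.61 and partly lay below the limit, and TBC1D2B, TBC1D23 and TBC1D5 fell by 0.44 ± 0.11, 0.36 ± 0.11 and 0.33 ± 0.09. Of the exchange factors, DENND1B, DENND2B and DENND5A fell by 0.96 ± 0.21, 0.78 ± 0.16 and 0.32 ± 0.10. ANKRD27, an exchange factor for RAB21, rose by 0.36 ± 0.10, and TRAPPC4, a subunit of the TRAPP complexes, by 0.34 ± 0.11. CHML, a RAB escort protein, fell by 0.64 ± 0.10 (adjusted p = 0.000154), from 10.58, 10.36 and 10.38 to 9.86, 9.79 and 9.77. With the probe set of highest variance CHML gave -0.13, or -0.15 with the arrays of high ACTB ratio left out, neither called. Calls were also lost under the first of these settings for TBC1D2B (-0.19), TBC1D16 (0.36), TBC1D5 (-1.10), DENND5A (-0.32) and TRAPPC4 (0.34). With those arrays left out as well, TBC1D5 gave -0.30.

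**Figure D5:**
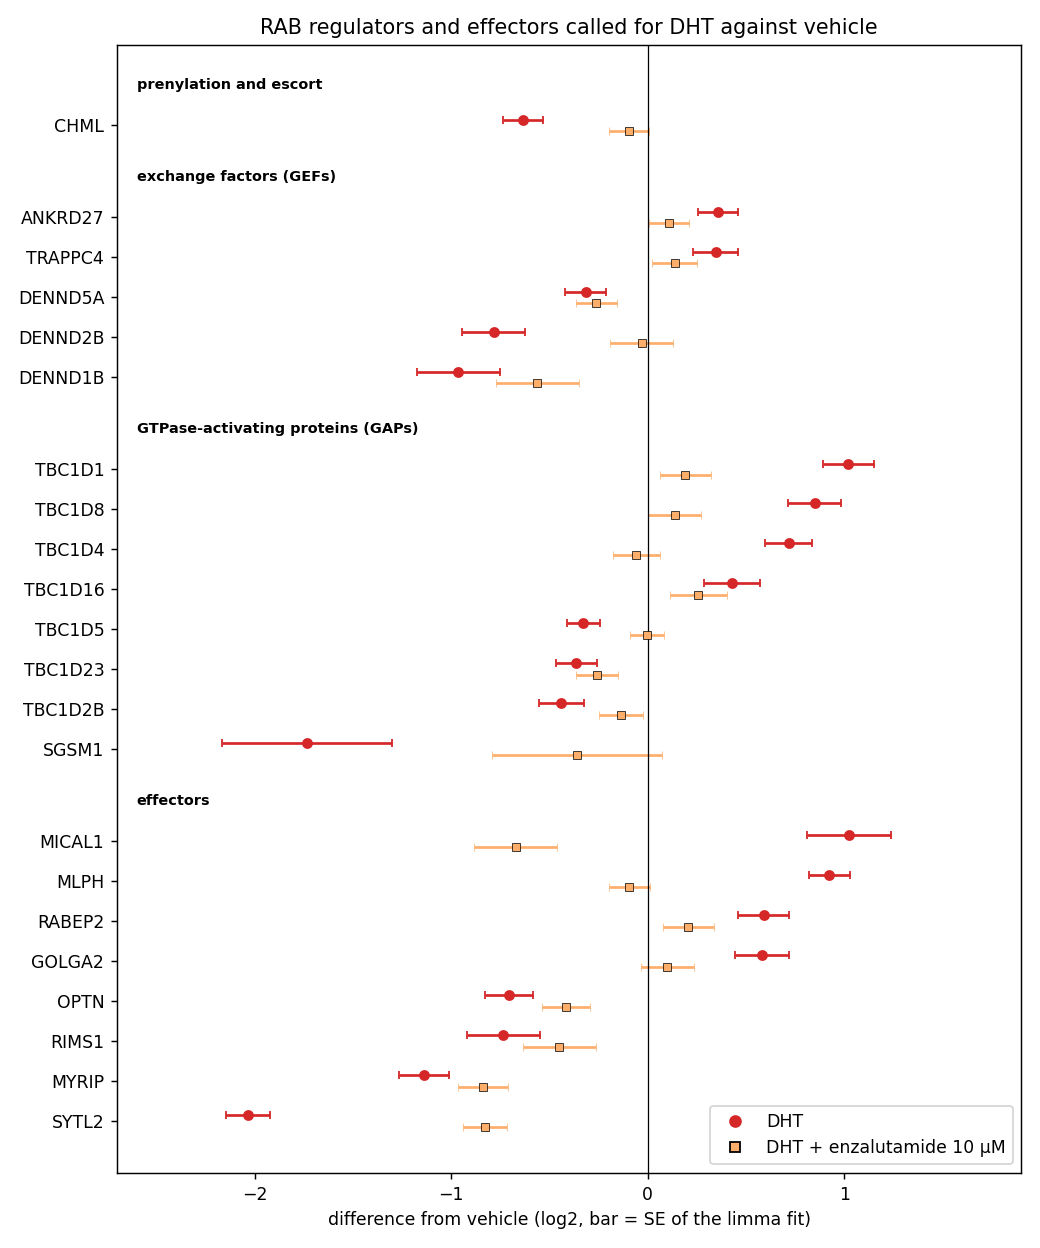
Log2 difference from vehicle with DHT (red circles) and with DHT and 10 µM enzalutamide (orange squares) for the partner genes called for DHT in limma, up to 8 per list, with bars for the standard error of the fit. With DHT, SYTL2 at -2.03 lies farthest from 0, and MICAL1 and TBC1D1 (each 1.02) rise farthest.

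In the authors' deposited table, by its name one of differentially expressed probe sets, the used probe sets of 8 of the 52 tested members are listed. Of these, the authors' deposited table marks 7 for vehicle against DHT, namely those of RAB3B, RAB4A, RAB29, RAB27A, RAB3D, RAB32 and RAB39B. The authors' deposited table marks 3 of them for DHT against DHT with 10 µM (RAB3B, RAB4A and RAB27A), RAB4A for DHT against DHT with 1 µM, and 0 for either dose alone. A RAB4B probe set not used here, which gave -2.51 at 1 µM, is marked there for vehicle against each dose alone. The marks come from these same arrays and from probe sets already listed as differential, so they are no independent support.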

How the data were processed

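RNA of LNCaP cells was measured on 18 single-colour expression arrays of 54675 probe sets. The deposited log2 values, made with MAS5 per the submitters' processing notes (version not given in the sources used here), were used as they are; on the linear scale each array had the same trimmed mean of 500.1, as MAS5 scaling gives. The authors' table of differentially expressed probe sets holds, per its headers, log ratios, p-values and significance flags. The flags are marks of 0 or 1, and only these marks were used. Whether the p-values were adjusted is not in the headers. Depth does not apply to arrays, and their number limits the precision.

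Genes were named from the deposited annotation, 43564 probe sets having a single symbol, 573 several and 10476 none. The brightest probe set stood for a gene. All 18 arrays were fitted with 6 group means in limma 3.58.1 (R 4.3.3) with an intensity trend and 12 residual degrees of freedom before moderation; the Benjamini-Hochberg adjustment ran over 12755 genes. Intervals are at 95%. Tables and figures used pandas 2.3.3 and matplotlib 3.10.9 in Python 3.11.15. The fit was tested on simulated data.

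Per-array values are given for members called with DHT, with the drug alone or beside DHT, or in an interaction, and for paralogues; other members are given by change or range, and up to 8 partner genes per list are named. The members, roles, partner lists and tests were chosen with earlier results of these data known. Alternatives were another probe set, filter, normalization, variance model or set of arrays, a replicate block and leaving out arrays; 1 that joined another probe set with leaving out arrays was added after the data were seen. RAB6C and RAB42, found only on probe sets of several symbols, and 1 probe set of uncertain name were not used here.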

Additional observations from a re-analysis of the deposited data

Results flagged for a closer look

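For 5 genes the DHT effect beside enzalutamide differed from that without it in limma's test of the difference, and each value below is the effect beside the drug minus the effect without it, on the log2 scale. At 10 µM the differences were -0.84 for RAB4A, -0.91 for RAB29 and -0.83 for RAB3B. At 1 µM they were -0.76 for RAB4A and -0.81 for RAB29, and 1.195 for RAB1B and 0.60 for RAB5C. The enzalutamide arrays at 1 µM that enter the last 4 include 1 of high ACTB ratio. Its values for RAB1B and RAB5C were the lowest of all arrays, and those for RAB29 and RAB4A the highest among arrays without DHT. Without that array and the matching DHT array, RAB1B gave 0.82 and RAB5C 0.43, the second no longer called (adjusted p = 0.126, against 0.00868 to 0.169 over its alternatives). RAB29 at 1 µM gave -0.40 and was no longer called either (adjusted p = 0.148), while RAB4A at 1 µM gave -0.58 and was still called.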

How the results depend on the processing

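With the probe set of highest variance in place of the brightest, 6 members were called for DHT, 1 for DHT with 1 µM against DHT, and 3 and 0 for DHT with 1 and 10 µM against vehicle; enzalutamide alone gave 3 at 1 µM and 1 at 10 µM. Under that setting RAB29 (0.56) and RAB3B (0.22) turned for DHT with 10 µM against DHT, RAB3B (0.26) for DHT with 1 µM against DHT, RAB5A (-0.85) for 1 µM alone and GOLGA2 (-1.78) for DHT, none of them called. With the arrays of high ACTB ratio left out as well, an alternative chosen after seeing the data, only RAB29 (0.16) and RAB5A (-0.39) were still turned, so the turns of RAB3B and GOLGA2 rested on those arrays. Under it 4 members were called for DHT with 10 µM against vehicle, 3 and 2 for 1 and 10 µM alone, and 2 for the interaction at 1 µM. For DHT with 1 µM against DHT the count was 1 with no filter on dim probe sets, 0 with each array centred and 1 with only the groups compared in the fit. For DHT with 10 µM against vehicle it was 1 with centring, 4 with quantile normalization, 1 without the variance trend, 6 with only the groups compared and 4 with the arrays of high ACTB ratio left out. For 1 µM enzalutamide alone it was 2 with centring, 3 without the trend, 0 with only the groups compared (a fit on fewer arrays) and 2 with the arrays of high ACTB ratio left out. For the interaction at 1 µM it was 2 without the filter, 1 with centring, and 2 without the trend, with only the groups compared, or without the arrays of high ACTB ratio. Except where the array left out sets the change, the cause was not tested. For these counts and those of the next paragraph, the share of all tested genes under the same setting is not given here. A moved count therefore cannot be read as particular to the members.

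Leaving out single arrays gave 5 to 11 members for DHT, with 5 without vehicle replicate 2; 1 to 3 and 3 to 7 for DHT with 1 and 10 µM against DHT; 3 to 6 and 1 to 4 for the same against vehicle; 1 to 10 and 0 to 0 for 1 and 10 µM alone; 0 to 0 between the doses beside DHT; and 2 to 7 (7 without enzalutamide 1 µM replicate 3) and 2 to 4 for the interactions. With the replicate number as a block the counts were 10 for DHT, 2 and 5 for DHT with 1 and 10 µM against DHT, 8 and 0 for 1 and 10 µM alone, and 5 and 3 for the interactions. The replicate block changed 1 of the 60 single-gene calls, that of RAB37 for DHT with 10 µM against DHT. No clear pairing of samples by replicate number was seen. Deviations of same-numbered arrays correlated between -0.19 and 0.42, with 8 of 45 pairs over 0.1, and 7 of 18 arrays correlated best with their own number. Pairs of other numbers correlated between -0.37 and 0.28, with 15 of 90 over 0.1. Deviations from means of 3 arrays cannot exclude a pairing.

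The values rest on 3 arrays a group from 1 cell line, on summarised array signals whose probe sets of a gene can disagree, and on p-values that measure the spread between these arrays. Probe sets near the brightness limit, such as those of RAB37 and SGSM1, give uncertain sizes of change.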

Other observations

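Probe sets of RAB6A, a Golgi RAB, ranged with DHT from -1.68 to 1.11 on the log2 scale against -0.18 for the brightest, which was used here; this gene was singled out after its values were seen. The -1.68 was set largely by DHT replicate 2, an array of high ACTB ratio: with such arrays left out that probe set gave -0.44, the highest 0.87 and the brightest -0.25. The second probe set of RAB39B gave -1.0 with DHT, where the one used gave -0.37 (adjusted p = 0.0805), and the authors' deposited table marks the latter for vehicle against DHT. Of the 4 members too dim to test, RAB34 ranged over the 18 arrays from 4.19 to 6.63, RAB38 from 6.52 to 7.77, RAB40A from 4.76 to 7.63 and RAB7B from 5.61 to 7.33, with some arrays above the brightness limit for RAB38, RAB40A and RAB7B.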
